A study of Mus musculus with 3 samples.

Results

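The leukocytes described here are the white blood cells found in libraries of inguinal fat that had been sorted to remove them. They were 70 of the 33663 barcodes that passed a quality filter (0.208%), and were chosen by their own counts. A barcode, the tag that marks 1 droplet, was kept with at least 1000 unique molecular identifiers (UMIs, each counting 1 captured RNA molecule) and at most 10% of them in mitochondrial genes. It was taken as a leukocyte with at least 3 UMIs summed over *Ptprc*, *Coro1a* and *Laptm5*, and with none of *Pdgfra*, *Epcam* or *Pecam1*. The levels of these genes in the selected cells are therefore a description, not a finding.

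The libraries were prepared from the stromal vascular fraction of inguinal white adipose tissue of mice aged 4 weeks, 1 per genotype and each from pooled mice. The libraries were Wild-type, *Mgp*-KO (a global deletion of *Mgp*, the gene for matrix Gla protein) and *Pd*-KO (*Mgp* flox/flox with a *Pdgfra*-Cre transgene, so that deletion was directed to cells in which the *Pdgfra* promoter is active). No library of floxed mice without Cre was analysed here, and the Wild-type library was the control for both deletions. In all 3 libraries, dead cells and CD45-positive cells had been removed by FACS before sequencing, so that the leukocytes are those that passed this gate and not a sample of the leukocytes of the tissue. Over all barcodes that passed the quality filter, *Mgp* was at 451 UMIs per 1000000 UMIs (CPM) in Wild-type, 1.75 CPM in *Mgp*-KO and 18.4 CPM in *Pd*-KO. With 1 library per genotype no test between genotypes was possible, and every interval is a 95% interval for counting error only. Genotype, pool, sort, library and the version of the counting software, which the headers give as an earlier one for Wild-type, cannot be told apart.

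CD45, the product of *Ptprc*, is a membrane phosphatase that sets the activity of Src family kinases in nearly all blood cells other than red cells and platelets. *Coro1a* encodes coronin 1A, an actin-binding protein of leukocytes, and *Laptm5* a lysosomal membrane protein that limits antigen receptor signalling. Fat of healthy mice holds macrophages, T cells, innate lymphoid cells and B cells. B cells are made in the bone marrow through stages that can be read from their RNA. Early precursors express a surrogate light chain, made of the products of *Igll1* and *Vpreb1* or *Vpreb2*, and the DNA polymerase *Dntt*, whereas later cells replace it by a rearranged light chain such as kappa (*Igkc*) and then gain MHC class II.

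Leukocytes made up a larger share of the *Pd*-KO library than of the other two. There were 14 among 11350 Wild-type barcodes (0.123%, exact binomial interval 0.0675 to 0.207), 11 among 13086 *Mgp*-KO barcodes (0.0841%, 0.0420 to 0.150) and 45 among 9227 *Pd*-KO barcodes (0.488%, 0.356 to 0.652). The *Pd*-KO share was 3.95 times the Wild-type share, with a difference of 0.364 percentage points (Newcombe interval 0.216 to 0.536). The difference between *Mgp*-KO and Wild-type was -0.0393 points (-0.131 to 0.0438), an interval that holds 0. Of the 45 *Pd*-KO cells, 30 formed a cluster with no cell of another library, described below as the *Vpreb1* cluster. Without the cluster the *Pd*-KO share was 0.163% (15 cells, 0.0910 to 0.268), and its difference from Wild-type was 0.0392 points (-0.0661 to 0.156). Since the cluster held *Pd*-KO cells only, leaving it out could only lower the *Pd*-KO share, and the value describes the remaining cells. The size of the difference depended on the filters, and it was 0.0558 points (-0.0310 to 0.164) with at least 4000 UMIs per barcode and 0.670 points with *Pecam1* allowed. That of *Mgp*-KO turned to 0.0553 points (0.00582 to 0.127) with at least 500 UMIs, where 34876 Wild-type barcodes were counted, and to 0.0194 points (-0.0375 to 0.0763) with every barcode thinned to 1000 UMIs. With a rule sum of at least 2 UMIs, the difference of *Mgp*-KO from Wild-type was -0.137 points (-0.251 to -0.0375).

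**Figure D1:**
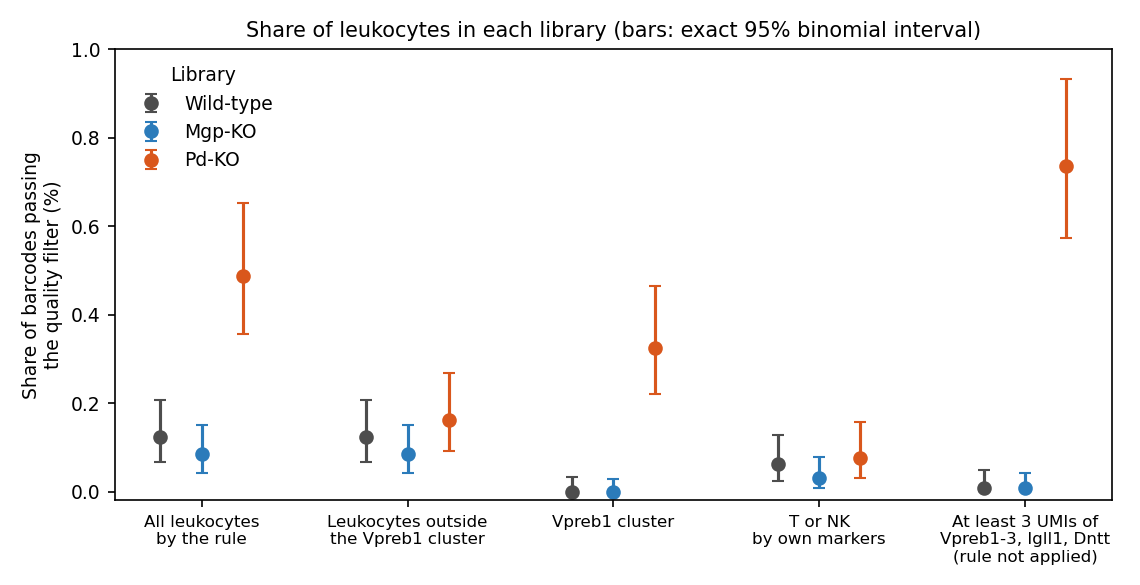
Share of the barcodes passing the quality filter (vertical axis, percent) for 5 sets of cells in the 3 libraries; points are shares and bars exact 95% binomial intervals. The *Pd*-KO library stands above the others for all leukocytes, for the *Vpreb1* cluster and for barcodes with at least 3 UMIs of *Igll1*, *Vpreb1*, *Vpreb2*, *Vpreb3* and *Dntt*, while the intervals overlap for leukocytes outside the *Vpreb1* cluster or for T and NK cells.

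The leukocytes held less RNA than the typical barcode of their library. They had a median of 3354 UMIs in Wild-type, 2553 in *Mgp*-KO and 2182 in *Pd*-KO, against medians of 12084.5, 6290.5 and 8015 over all barcodes that passed the filter. Their median mitochondrial share was 2.54%, 1.97% and 2.80%. No member barcode occurred in more than 1 library. Among all barcodes that passed the filter, 42 were shared by Wild-type and *Mgp*-KO, 39 by Wild-type and *Pd*-KO, and 37 by *Mgp*-KO and *Pd*-KO. The Scrublet doublet caller marked none of the 70 cells, but it marked 1 barcode each in the Wild-type and *Mgp*-KO libraries and had therefore not worked there; in the *Pd*-KO library it marked 221 of 9227 (2.40%).

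*Ptprc* itself was detected in 47 of the 70 cells. At least 1 UMI was present in 11 cells of the Wild-type library, in all 11 of the *Mgp*-KO library and in 25 of the 45 from *Pd*-KO mice, with medians of 2, 2 and 1 UMIs and a maximum of 12 in a Wild-type cell. *Coro1a* was detected in 12, 9 and 40 cells, with a median of 3 UMIs in each library, and *Laptm5* in 8, 9 and 33 cells, with a median of 1. *Cd74*, a further marker of immune cells that the rule did not use, had a UMI in 8, 6 and 15 cells. At the threshold of 3 UMIs lay 3 cells from Wild-type, 1 from *Mgp*-KO and 12 from *Pd*-KO. Just below it, at 2 UMIs, lay a further 12, 1 and 10 barcodes. Of these, none from Wild-type or *Mgp*-KO and 9 of the 10 from *Pd*-KO could be given a lineage by its markers, 8 of them B. Without the conditions on *Pdgfra*, *Epcam* and *Pecam1*, 22, 16 and 83 barcodes reached 3 UMIs.

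Other genes of leukocytes were present in the same cells. All 24 pan-leukocyte genes of a list without the rule's genes were detected in each library. A cell carried a median of 11.5 of them in Wild-type (range 8 to 18), 13 in *Mgp*-KO (4 to 17) and 9 in *Pd*-KO (5 to 15), and 69 of the 70 cells carried at least 5. In barcodes with a *Pdgfra* UMI, the median was 2 in each library, and 2.03%, 0.391% and 1.01% carried at least 5. The most abundant of the 24 genes was *Cd52*, a small surface glycoprotein of lymphocytes, in Wild-type (167 UMIs) and *Mgp*-KO (80 UMIs), and *Srgn*, the core protein of granule proteoglycans, in *Pd*-KO (133 UMIs). *Ptprc* had a UMI in 0.102%, 0.0651% and 0.155% of the *Pdgfra*-positive barcodes, which had medians of 14289.5, 6843 and 9364.5 UMIs.

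Lineages were read in 2 ways, from the list of lineage markers with the most UMIs in each cell, and from clusters of the 70 cells. By the first, most cells were lymphocytes. The B cell list led in 42 cells, the T cell list in 15 and the NK cell list in 3, and lists of dendritic cells, monocytes, macrophages and neutrophils led in 9 cells together. The Wild-type cells were 7 of B, 6 of T and 1 of NK class. The *Mgp*-KO cells were 4 of T, 2 of conventional dendritic, 2 of plasmacytoid dendritic, 1 of B and 1 of monocyte class, with 1 cell in no class. The *Pd*-KO cells were 34 of B, 5 of T, 2 of NK, and 1 each of conventional dendritic, plasmacytoid dendritic, macrophage and neutrophil class. The B share of the leukocytes was 75.6% in *Pd*-KO (60.5 to 87.1) and 9.09% in *Mgp*-KO (0.230 to 41.3), and the interval around the 7 of 14 in Wild-type ran from 23.0 to 77.0%. In 5 cells the leading list was at most 3 UMIs ahead of the next. No cell fell to the lists of innate lymphoid cells type 2, plasma cells, mast cells, basophils, eosinophils or megakaryocytes.

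**Figure D2:**
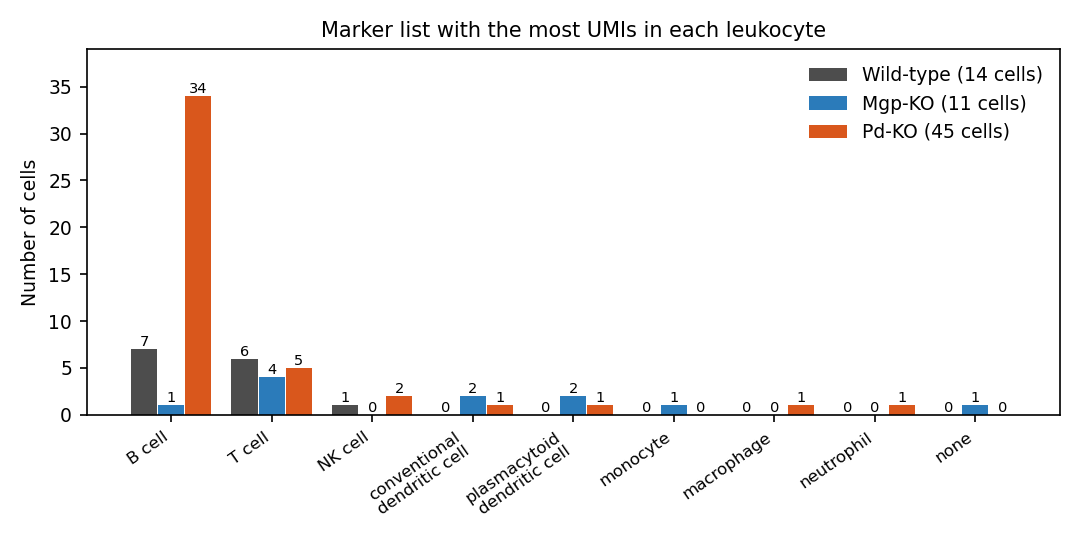
Number of leukocytes (vertical axis) by the lineage marker list that held the most UMIs in the cell, for all 70 cells by library. The B cell list leads in 34 *Pd*-KO cells against 7 Wild-type and 1 *Mgp*-KO cell, while the T cell list leads in 6, 4 and 5 cells.

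Clustering gave 3 groups. A T cell-like cluster of 18 cells was led by *Ccl5*, *Gzma*, *Trbc2*, *Nkg7*, *Cd3g* and *Cd3d*, and held 7 cells from the Wild-type library, 4 from *Mgp*-KO and 7 from *Pd*-KO, the same 18 cells that the T and NK lists gave. A mixed cluster of 22 cells was led by *Cxcl2*, *S100a9*, *S100a8*, *H2-Aa*, *Lyz2*, *H2-Eb1* and *Cd74*, and held 7, 7 and 8 cells; it joined 13 B-list cells with the myeloid and dendritic cells and was given no name. Of its leading genes, *S100a9* and *S100a8* came from 1 cell, 196 of 204 *Cxcl2* UMIs from another and 61 of 67 *Lyz2* UMIs from a further one, while *H2-Aa* and *Cd74* were each found in 19 cells. The third cluster held the 30 *Pd*-KO cells and was led by *Vpreb1*, *Car1*, *Igll1*, *Slc25a21* and *Dntt*. Its cells had a median of 2253.5 UMIs against 8015 in the library, and no gene of the B cell list was among its 10 leading genes, so it was given no cell type name and is called by its first gene. *Car1* and *Slc25a21* came from 1 cell only. A cluster drawn from a single library cannot be told apart from that library here. When the log values were centred per library, clusters of at least 5 cells that held only *Pd*-KO cells took 7 of the 45 cells (15.6%). Centring also subtracts much of the profile of the 30 cells themselves, so it cannot separate the cluster from the library.

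**Figure D3:**
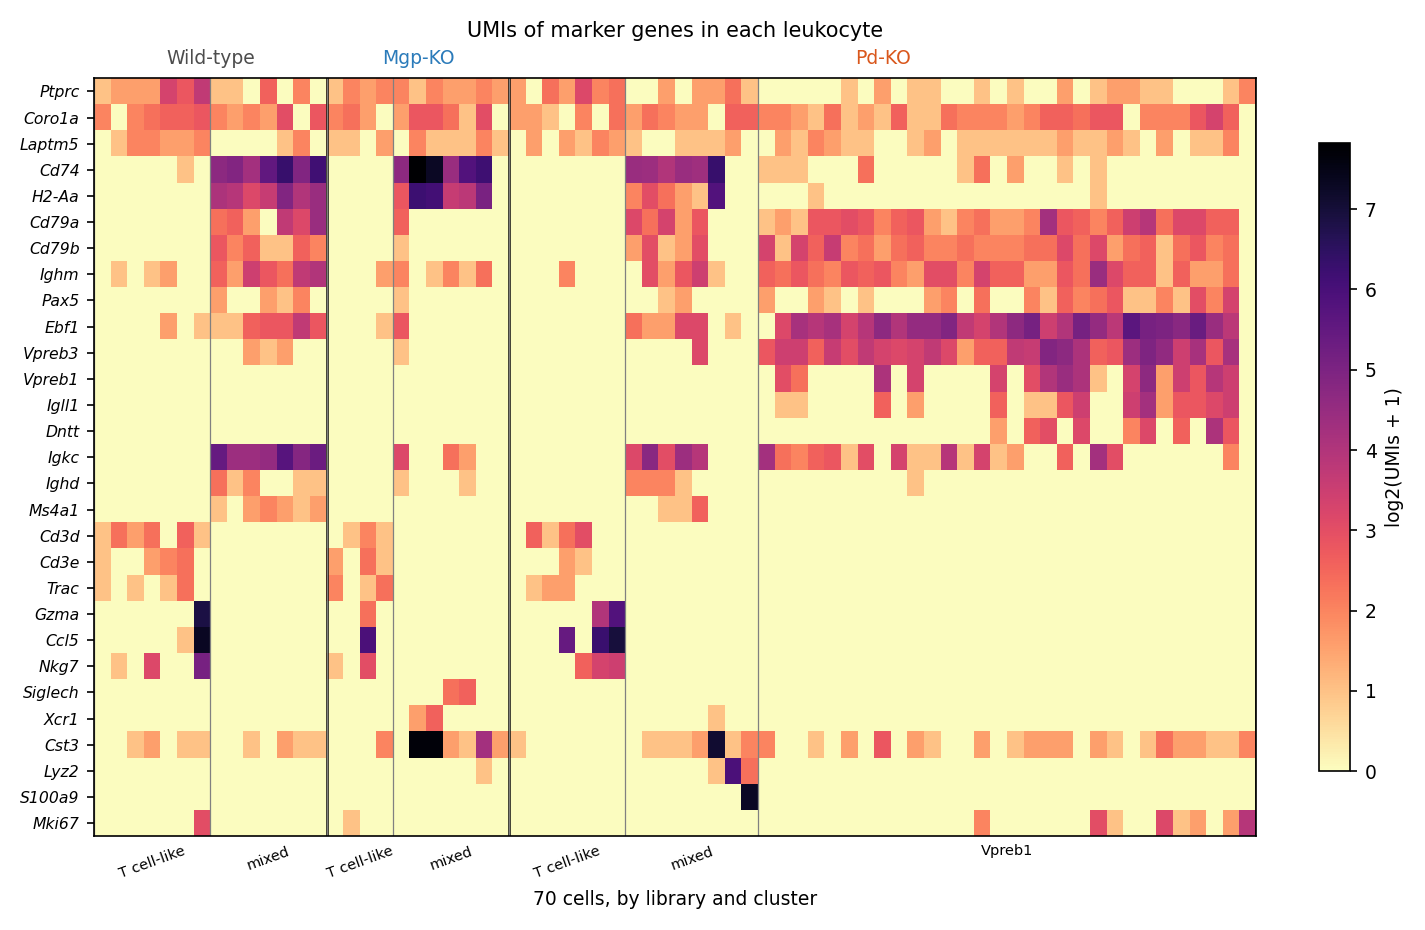
UMIs of 29 marker genes (rows, log2(UMIs + 1)) in each of the 70 leukocytes (columns), ordered by library and cluster. *Ebf1*, *Vpreb3*, *Cd79a* and *Ighm* run through nearly all of the 30 cells of the *Vpreb1* cluster with *Vpreb1*, *Igll1* and *Dntt* in some of them. *Cd74* and *H2-Aa* are found in the B-list, dendritic and monocyte-class cells of the mixed cluster, and scarcely in the *Vpreb1* cluster. *Igkc* is found in all B-list cells of the mixed cluster and in 19 cells of the *Vpreb1* cluster.

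The *Vpreb1* cluster carried the genes of B cell precursors. The B cell list led in 29 of its 30 cells; the other, with 23279 UMIs, held the *Car1* transcripts, no UMI of *Cd79a*, *Vpreb1* or *Ebf1*, and a plasmacytoid class that rested on 5 UMIs with *Siglech* at 0. *Cd79a* and *Cd79b*, the signalling chains of the B cell receptor, and *Ighm*, the mu heavy chain, were each detected in 29 cells, as was *Vpreb3*, a chaperone-like protein of developing B cells. *Ebf1*, a transcription factor that commits cells to the B lineage, was detected in 28 cells with 592 UMIs, and *Pax5*, which acts downstream of it, in 20 cells with 62 UMIs. *Vpreb1* had 180 UMIs in 17 cells, with a median of 9 and a maximum of 24 in these. *Igll1* had 92 UMIs in 16 cells, all of them among those 17, with a maximum of 18. *Dntt*, which adds bases at the joints of rearranged receptor genes, had 60 UMIs in 9 cells, and all 9 also carried *Vpreb1*. *Rag1* or *Rag2*, the enzymes that cut these genes, had a UMI in 8 cells. *Il7r*, the receptor for the cytokine that supports B cell precursors, had 31 UMIs in 18 cells, and *Myb* 50 UMIs in 19 cells. Outside the cluster, none of the 40 other leukocytes had a UMI of *Vpreb1*, *Igll1* or *Dntt*. A gene that helped to form a cluster is no finding against the cells outside it, so these values describe what the cluster holds. Where its cells came from was not tested.

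Within the cluster, surrogate and kappa light chain transcripts were mostly found in different cells. Of the 30 cells, 10 carried *Vpreb1* or *Igll1* without *Igkc*, 12 carried *Igkc* without either, 7 carried both and 1 neither. The 16 cells with at least 3 UMIs of *Vpreb1* and *Igll1* held 17 *Igkc* UMIs (310 CPM). The 14 others held 98 (1996 CPM), and include the *Car1* cell with 23279 UMIs and no *Igkc*. Without it, in an alternative added after seeing the data, the 13 that remain were at 3796 CPM (3082 to 4626). *Dntt* had 60 UMIs in the 16 cells and none in the 14, and the transcription factor *Erg* 26 and none. *Lef1*, a Wnt pathway transcription factor of lymphocyte precursors, had 71 against 5 UMIs. *Cd79b* was at 1221 CPM in the 16 cells and at 1263 CPM (968 to 1619) in the 14. Without the *Car1* cell it was at 2401 CPM (1841 to 3078) in the 13. The cut was set after these values had been seen, and both sides belong to 1 library.

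**Figure D4:**
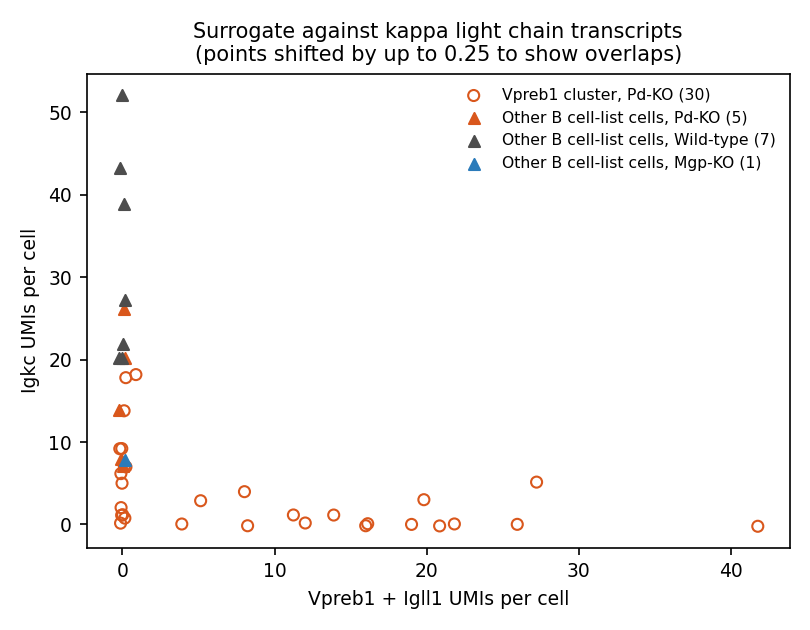
*Igkc* UMIs (vertical axis) against the sum of *Vpreb1* and *Igll1* UMIs (horizontal axis) in each cell of the *Vpreb1* cluster (open circles) and each other B-list cell (triangles), coloured by library. The 13 other B-list cells have no *Vpreb1* or *Igll1* UMI and between 7 and 52 *Igkc* UMIs, and the cells of the *Vpreb1* cluster lie along both axes.

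At a higher clustering resolution of 2.0, the 30 cells fell into groups of 11, 11 and 8 cells. The first had *Vpreb1* and *Igll1* in all 11 cells and 49 *Dntt* UMIs in 7 of them. The second had 1 *Vpreb1* UMI, no *Igll1* and *Igkc* in all 11 cells (82 UMIs). The third held genes of dividing cells, with *Mki67*, a proliferation marker, in 7 of 8 cells (31 UMIs) and *Top2a*, which untangles chromosomes, in 5 (29 UMIs). It included the *Car1* cell, which held 14 of these *Mki67* and 12 of these *Top2a* UMIs. By the fixed list of cycling genes, 9 of the 30 cells had at least 5 UMIs. These 9 had a median of 4817 UMIs in all, against 1841 in the rest, and a count of at least 5 is reached more easily in a deeper cell.

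The regions before the starts of the surrogate light chain genes are shown because these genes were found together in the cells, and because *Vpreb1* and *Vpreb2* are near copies of each other. *Igll1* and *Vpreb1* lie on the same strand of chromosome 16, with starts 5270 bases apart. The 250 bases before each start come from RefSeq (GRCm38.p6) and are written 5′ to 3′ in the direction of transcription, at chr16:16869256-16869505 (minus strand) for *Vpreb1* and chr16:17980315-17980564 (plus strand) for *Vpreb2*. Capitals mark the longest run without a mismatch shared by the pair, of 91 bases.
Vpreb1: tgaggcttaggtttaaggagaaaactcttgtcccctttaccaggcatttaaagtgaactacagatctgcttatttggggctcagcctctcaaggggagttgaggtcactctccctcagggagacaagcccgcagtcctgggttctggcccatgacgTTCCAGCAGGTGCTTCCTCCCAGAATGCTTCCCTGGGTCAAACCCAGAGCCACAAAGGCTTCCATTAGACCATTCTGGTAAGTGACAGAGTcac
Vpreb2: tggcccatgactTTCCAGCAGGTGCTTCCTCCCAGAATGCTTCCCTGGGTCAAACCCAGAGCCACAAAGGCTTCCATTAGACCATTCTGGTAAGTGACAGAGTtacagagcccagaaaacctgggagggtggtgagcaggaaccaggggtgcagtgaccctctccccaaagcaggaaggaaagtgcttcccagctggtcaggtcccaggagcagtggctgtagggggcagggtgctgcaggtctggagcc
*Vpreb2* had 23 UMIs in 10 cells of the cluster, and reads that match both copies may have been split or dropped, so the levels of *Vpreb1* and *Vpreb2* are uncertain. The *Igll1* region lies at chr16:16863986-16864235 (minus strand), and capitals mark the letters CCCNNGGG, the core bound by EBF factors, which read the same on both strands.
Igll1: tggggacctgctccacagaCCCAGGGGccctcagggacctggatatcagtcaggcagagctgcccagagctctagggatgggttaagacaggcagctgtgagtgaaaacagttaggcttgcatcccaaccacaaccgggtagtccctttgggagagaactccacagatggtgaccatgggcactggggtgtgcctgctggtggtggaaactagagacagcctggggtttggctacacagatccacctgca
In the *Igll1* region these letters began 231 bases before the start. Among the same regions of 14 genes searched, they occurred in 3, those of *Igll1*, *Coro1a* (at 1 of its starts) and *Laptm5*, and not in those of *Vpreb1*, *Vpreb2*, *Vpreb3*, *Dntt*, *Rag1*, *Cd79a*, *Pax5*, *Ebf1*, *Cd3d*, *Cd3e* and *Ptprc*. They occurred before 13.4% of 27025 genes, and a match of letters is not a bound site.

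The 13 other B-list cells carried light chain and MHC class II transcripts. They comprised 7 cells from Wild-type, 1 from *Mgp*-KO and 5 from *Pd*-KO mice, with median UMI counts of 3114, 1387 and 1232. *Igkc* was detected in all 13, with 20 to 52 UMIs per cell in Wild-type (median 27), 8 in the *Mgp*-KO cell and 7 to 26 in *Pd*-KO (median 14). *Cd74*, the invariant chain that escorts MHC class II molecules, was also detected in all 13, with medians of 29, 24 and 20 UMIs. Summed over cells, *Cd74* was at 12171 CPM in Wild-type, at 17304 CPM in the single *Mgp*-KO cell and at 15080 CPM in *Pd*-KO. *Ms4a1*, which encodes the surface protein CD20, had a UMI in 6 of 7, 0 of 1 and 3 of 5 cells, and none in the 30 cells of the *Vpreb1* cluster. *Ighd*, the delta heavy chain of naive B cells, had a UMI in 5, 1 and 4 cells. *Ccr7*, a receptor that guides lymphocytes to lymph nodes, was at 1288 CPM in the 7 Wild-type cells (875 to 1828) and 314 CPM in the 5 *Pd*-KO cells (38.0 to 1135), with intervals that overlapped.

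Set beside these 13 cells, the 30 cells of the *Vpreb1* cluster had a log2 ratio of -6.40 for *Cd74* (conditional binomial interval -7.22 to -5.68, 154 against 12976 CPM), -7.81 for *H2-Aa* (-10.9 to -5.93) and -3.12 for *Igkc* (-3.44 to -2.81). The ratio was 2.91 for *Vpreb3* (2.15 to 3.801), 2.32 for *Bach2* (1.45 to 3.35), 1.44 for *Ebf1* (1.07 to 1.82) and -0.16 for *Cd79b* (-0.66 to 0.37). The cluster is all *Pd*-KO, and against the 5 *Pd*-KO cells alone, an alternative added after seeing the data, these 4 ratios moved: *Vpreb3* was at 1.40 (0.41 to 2.62), *Bach2* at 0.65 (-0.42 to 1.99), *Ebf1* at 0.59 (0.0071 to 1.25) and *Cd79b* at -1.27 (-1.97 to -0.49). With the *Car1* cell also left out they were 1.77, 0.99 (-0.085 to 2.32), 0.96 and -0.90 (-1.60 to -0.12). For *Cd74*, *H2-Aa* and *Igkc* the ratio against the 5 cells was -6.61, -7.12 and -3.41. *Vpreb1* was at least 18.4 times and *Igll1* at least 9.39 times as high in the cluster, computed against 3 UMIs over the 13 cells. Against the 5 *Pd*-KO cells alone these bounds are lower. There, 3 UMIs are 471 CPM, while the cluster had 1731 CPM of *Vpreb1* and 885 CPM of *Igll1*. Genes that formed the clusters also give these ratios, which are a description only.

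T cells were found in each library and NK cells in Wild-type and *Pd*-KO. Together they were 7 of 11350 Wild-type barcodes (0.0617%, 0.0248 to 0.127), 4 of 13086 *Mgp*-KO barcodes (0.0306%, 0.00833 to 0.0782) and 7 of 9227 *Pd*-KO barcodes (0.0759%, 0.0305 to 0.156), with intervals that overlapped. A chain of the CD3 complex was detected in 16 of the 18 cells, and *Trbc2*, a constant region of the T cell receptor, had 77 UMIs in 15 of them. *Ptprc* had a UMI in 17 of the 18. *Cd8a* or *Cd8b1*, the chains of the CD8 coreceptor, had a UMI in 2 Wild-type, 3 *Mgp*-KO and 1 *Pd*-KO cell, and *Cd4* in 0, 1 and 1 cell. At these depths, the T cells without a UMI of these genes could not be placed on either side. *Foxp3*, the factor of regulatory T cells, had no UMI in any of the 18 cells, and *Trdc*, of the gamma delta receptor, had 1 each in 2 *Pd*-KO cells.

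Some genes of cytotoxic cells were concentrated in a few of these cells. *Gzma*, a granule protease, had 114 UMIs in 1 Wild-type cell, 4 in 1 *Mgp*-KO cell and 70 in 2 *Pd*-KO cells. *Ccl5*, a chemokine made by cytotoxic and memory cells, had 161 UMIs in 2 Wild-type cells, 61 in 1 *Mgp*-KO cell and 241 in 3 *Pd*-KO cells. The single Wild-type cell with 160 *Ccl5* UMIs was also the one with all *Gzma* UMIs of that library. *Lef1*, which marks naive T cells among mature ones, had a UMI in 5 of the 7 cells from Wild-type, in 1 of the 4 from *Mgp*-KO and in 5 of the 7 from *Pd*-KO mice. One *Mgp*-KO cell of T class carried 136 UMIs of smooth muscle genes, 70 of them *Acta2*, and was the only leukocyte with more than 3 UMIs of that list.

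Dendritic and other myeloid cells were few and came from the knockout libraries. By their own markers, macrophage, monocyte, conventional dendritic and neutrophil classes held 0 of 11350 Wild-type barcodes (which allows a share of up to 0.0264%), 3 of 13086 *Mgp*-KO barcodes (0.0229%, 0.00473 to 0.0670) and 3 of 9227 *Pd*-KO barcodes (0.0325%, 0.00671 to 0.0950), so that no difference was detectable at this depth. Of the *Mgp*-KO cells, 2 carried *Xcr1* (2 and 5 UMIs) and *Clec9a* (1 and 5 UMIs), receptors of cross-presenting dendritic cells, with 204 and 205 UMIs of the protease inhibitor *Cst3* and 225 and 155 of *Cd74*. Another pair of *Mgp*-KO cells carried *Siglech* (5 and 4 UMIs), *Bst2* (32 and 19) and *Ccr9* (2 and 3), genes of plasmacytoid dendritic cells. In the *Pd*-KO library, 1 cell had 155 *S100a9* and 106 *S100a8* UMIs, which encode calprotectin of neutrophils, among 1588 UMIs. Another *Pd*-KO cell had 61 UMIs of the lysozyme gene *Lyz2* and fell to the macrophage list with 7 UMIs, 2 ahead of the next list. The *Mgp*-KO cell in no class had 196 UMIs of the chemokine gene *Cxcl2* and 30 of *Il1b* among 1176.

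Macrophage genes were at or near 0. The list of 12 macrophage markers had 0 UMIs in the Wild-type cells, 3 in the *Mgp*-KO cells (all *Cd68*) and 9 in the *Pd*-KO cells, 5 of them *F13a1*. *C1qa*, *C1qb*, *C1qc*, *Adgre1* and *Mrc1* were among the genes without a UMI in Wild-type and *Mgp*-KO leukocytes. The list of 10 resident macrophage genes had 0, 0 and 5 UMIs, and that of 10 complement and scavenger receptor genes 0, 0 and 4. Lists of less specific genes held more UMIs. Of 11 genes linked with lipid-laden macrophages, 9, 8 and 8 had a UMI, with *Apoe* leading in Wild-type (72 UMIs), *Ctsl* in *Mgp*-KO (31) and *Ctsd* in *Pd*-KO (12). The 15 lysosomal genes were at 1203, 4403 and 1524 CPM, with *Psap*, *Psap* and *Lyz2* leading. Of the 208 UMIs in *Pd*-KO, 61 were the *Lyz2* UMIs of 1 cell.

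MHC class II transcripts were highest in the *Mgp*-KO leukocytes, which held the most dendritic cells. The *Pd*-KO level was below that of Wild-type over all cells. Outside the *Vpreb1* cluster it was not, but a large part of those UMIs came from a single dendritic cell. The list of 11 genes was at 10626 CPM in Wild-type, 28409 CPM in *Mgp*-KO and 2844 CPM in *Pd*-KO leukocytes, with *Cd74* most abundant in each (294, 552 and 190 UMIs). Outside the *Vpreb1* cluster, the *Pd*-KO leukocytes were at 10848 CPM for the list and 5362 CPM for *Cd74*, against 5277 CPM for *Cd74* in Wild-type. Of the 174 *Cd74* UMIs of these *Pd*-KO cells, 78 came from a single conventional dendritic cell. That cell also held 55 UMIs of *H2-Aa* and 34 of *H2-Eb1*, and the levels without it were not computed. Over all cells, the log2 ratio of *Cd74* to Wild-type was 1.38 in *Mgp*-KO (1.17 to 1.59) and -1.92 in *Pd*-KO (-2.19 to -1.65). With each cell weighted equally it was 0.70 and -1.39. Scaling by the median ratio over 885 genes, which moved *Mgp*-KO by 0.28 and *Pd*-KO by 0.01 on the log2 scale relative to total UMIs, gave 1.10 and -1.93. The 45 *Pd*-KO cells included the 30 of the *Vpreb1* cluster, in which *Cd74* had 16 UMIs in 9 cells. No lineage had 20 cells in each of 2 libraries, so no genes were picked by their ratio between libraries within a lineage.

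Lists of signalling genes were often led by different genes in the libraries. Of 9 kinases in the list of Src family members and CD45 targets, 6 were detected in Wild-type, 7 in *Mgp*-KO and 8 in *Pd*-KO leukocytes. The most abundant was *Lck*, of T cells, in Wild-type (8 UMIs) and *Lyn*, of B and myeloid cells, in *Pd*-KO (47 UMIs). The list of 9 Fc receptors and adaptors was at 844, 2139 and 726 CPM, led in each library by *Tyrobp*, an adaptor of NK and myeloid receptors. In *Pd*-KO this list was at 28.8 CPM in the *Vpreb1* cluster and at 2958 CPM outside it, the highest of the libraries. Among 15 chemokine and growth factor receptors, *Ccr7* led in Wild-type (43 UMIs), *Flt3* in *Mgp*-KO (7) and *Il7r* in *Pd*-KO (36). Of 26 cytokines and chemokines, *Ccl5* led in Wild-type (161 UMIs) and *Pd*-KO (241), and *Cxcl2* in *Mgp*-KO (196, all in 1 cell). The 12 interferon response genes were at 754, 1866 and 909 CPM, led by *Ifi27l2a*, *Bst2* and *Ifi27l2a*. Of the 75 UMIs in *Mgp*-KO, 60 were *Bst2*, and 32 and 19 of these came from the plasmacytoid pair.

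Stromal transcripts were found in every leukocyte, at the highest share in the Wild-type library. The list of 10 stromal transcripts (*Mgp*, *Dcn*, collagens and others) had at least 1 UMI in each of the 70 cells, and took a median of 0.803% of a cell's UMIs in Wild-type (range 0.588 to 1.90), 0.0867% in *Mgp*-KO (0.0428 to 0.751) and 0.244% in *Pd*-KO (0.0415 to 0.596). The highest *Pd*-KO cell lay just above the lowest Wild-type cell, and 1 *Mgp*-KO cell, that with the smooth muscle transcripts, lay within the Wild-type range near its median. Free RNA was read from droplets with 10 to 100 UMIs, where the list was at 37873, 57929 and 99526 CPM. The leukocytes carried 23.8%, 2.79% and 2.11% of that level, but 37 of the 65 *Mgp*-KO UMIs came from the T-class cell with smooth muscle transcripts, without which the *Mgp*-KO value was 1.37%. The dissociation stress and immediate early list of 14 genes was at 4721, 11543 and 2785 CPM in the leukocytes, but 275 of the 464 *Mgp*-KO UMIs came from that same cell, without which the level was 5359 CPM. The part of free RNA or of stress in the differences between libraries was not tested. With the minimum lowered to 500 UMIs, the barcodes counted rose from 11350 to 34876 in Wild-type. They rose from 13086 to 13222 in *Mgp*-KO and from 9227 to 9369 in *Pd*-KO. Whether droplets of 10 to 100 UMIs are of like kind in the libraries was not tested. The percentages of free RNA therefore describe each library alone.

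**Figure D5:**
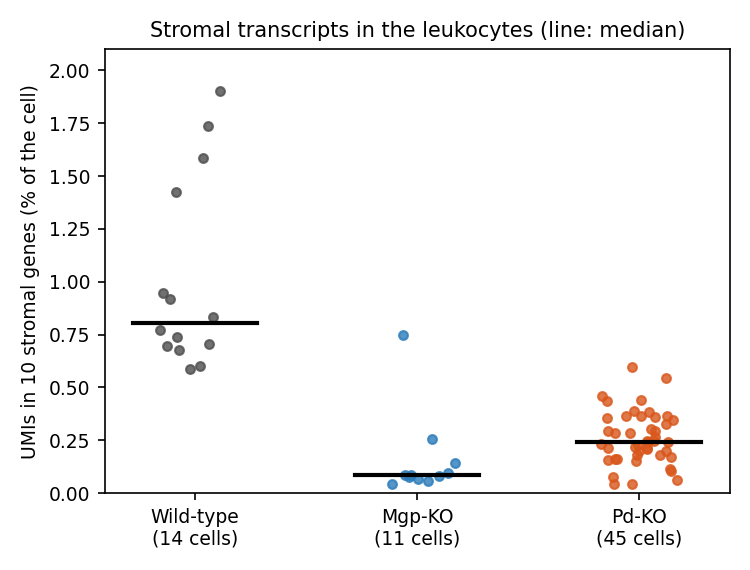
Share of each leukocyte's UMIs in 10 stromal genes (vertical axis, percent) for all 70 cells by library; each point is a cell and the line is the median. The Wild-type cells lie between 0.588 and 1.90%, and the medians of the knockout libraries are 0.0867 and 0.244%.

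Of the other lists of cells that are not leukocytes, that of adipose progenitor markers, which shares its collagens with the stromal list, was the highest in Wild-type and *Pd*-KO. It was at 6300 CPM in Wild-type, 597 CPM in *Mgp*-KO and 2162 CPM in *Pd*-KO, with *Col3a1* leading in each. The smooth muscle list was at 126, 3383 and 7.33 CPM, its *Mgp*-KO UMIs all in the T-class cell named above. The 8 endothelial markers had 2, 1 and 8 UMIs, 7 of the *Pd*-KO UMIs from *Egfl7*. The 5 erythroid markers had 4, 0 and 2 UMIs. The 5 luminal epithelial markers had 9, 2 and 4, the 5 pericyte markers 2, 1 and 1, and the 5 adipocyte markers 3, 1 and 1. The progenitor, endothelial and luminal lists include *Pdgfra*, *Pecam1* and *Epcam*, in that order. The rule fixed these genes at 0, which can only lower the counts of those lists.

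*Mgp*, the deleted gene, was scarcely present in the leukocytes of any library. It had 5 UMIs in 3 of the 14 Wild-type cells (89.7 CPM, exact Poisson interval 29.1 to 209), where the level in free RNA was 359 CPM. It had none in the 11 *Mgp*-KO cells, which allows up to 74.6 CPM, and none in the 45 *Pd*-KO cells, which allows up to 22.0 CPM.

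The precursor genes were also counted without the rule, in all barcodes that passed the quality filter. Barcodes with at least 3 UMIs summed over *Igll1*, *Vpreb1*, *Vpreb2*, *Vpreb3* and *Dntt* numbered 1 of 11350 in Wild-type (0.00881%, 0.000223 to 0.0491), 1 of 13086 in *Mgp*-KO (0.00764%, 0.000193 to 0.0426) and 68 of 9227 in *Pd*-KO (0.737%, 0.573 to 0.933). Of the 68, 29 were members. The others had a *Pecam1* UMI (23), a *Pdgfra* UMI (4) or fewer than 3 UMIs of the rule's genes (19), with some meeting more than 1 of these conditions. *Ptprc* had no UMI in 41 of the 68. *Igll1* had 163 UMIs in 33 *Pd*-KO barcodes, 15 in 1 *Mgp*-KO barcode and none in Wild-type, whereas *Vpreb1* was found as scattered UMIs in 192 Wild-type and 107 *Mgp*-KO barcodes, with at least 2 UMIs in 3 of each. The genes were chosen after the clusters had been seen, so that the counts extend the description and are no independent test. *Vpreb3*, which also occurs in cells past the surrogate light chain stage, carried much of the count, and without it the barcodes numbered 1, 1 and 30.

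The *Vpreb1* cluster held cells with *Xist* and cells with Y-linked transcripts. Of its 30 cells, 9 had *Xist*, expressed from the inactive X chromosome of females, and no UMI of 4 Y-linked genes, 9 had a Y-linked UMI and no *Xist*, 1 had both and 11 neither. Among the 68 *Pd*-KO barcodes with at least 3 UMIs of *Igll1*, *Vpreb1*, *Vpreb2*, *Vpreb3* and *Dntt*, these numbers were 22 with *Xist* only and 17 with Y-linked genes only.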

How the data were processed

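Inguinal stromal vascular cells of pooled 4-week-old mice, sorted by FACS to be free of CD45-positive and dead cells, were profiled with 10x Genomics 3′ chemistry in 1 library each for Wild-type, *Mgp*-KO and *Pd*-KO. The authors deposited raw UMI counts for 32285 genes in all barcodes, unfiltered and without normalization. The totals were 184102026, 93212243 and 83942865 UMIs. The submitters' processing notes name Cell Ranger 6.1.1 and GRCm39, the methods of the study mm10, and the headers of the count files Cell Ranger 4 for Wild-type and 7.1.0 for both knockouts. The methods give default parameters for version 6.1.1; how introns were counted by the versions in the headers is not given in the sources used here.

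Barcodes with at least 1000 UMIs and at most 10% mitochondrial UMIs were kept, and leukocytes chosen by the rule stated in the results. The members, the marker and gene lists were chosen with earlier results of these data known, and the lists of B cell precursor, mature B cell and T cell subset genes were added after the leukocytes had been seen. Counts of the members were scaled to 10000, log-transformed and reduced to 2000 variable genes (without *Mgp*, *Xist* and Y-linked genes) and 30 principal components. Leiden clustering used 15 nearest neighbours, resolution 1.0 and no integration of libraries (scanpy 1.11.5). A cell was also given the lineage list with most UMIs (at least 3 UMIs from at least 2 genes, no tie). Named genes are those of the rule and the lists, *Mgp*, and the 10 genes with the largest log2 ratio in a cluster (0.5 UMIs added, at least 20 UMIs); *Car1*, *Slc25a21* and the genes named for single cells were chosen after their values were seen. CPM is UMIs per 1000000 UMIs, summed over cells. Shares have exact binomial (Clopper-Pearson) intervals, differences Newcombe, sums exact Poisson and ratios exact conditional binomial intervals, at 95% and for counting error only. A count of 0 is given with the limit that 3 counts allow. The rule, filters, resolution, scaling and doublets were varied. The steps were tested on simulated data. No p-value was computed, since no genotype had a second library.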

Additional observations from a re-analysis of the deposited data

Results flagged for a closer look

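Signals were also found in barcodes that the comparisons above left out. In the first place, 29 *Pd*-KO barcodes met the rule except for a *Pecam1* UMI, against 1 in Wild-type and 1 in *Mgp*-KO. Of the 29, 24 had the B cell list in front and 2 the T cell list, 17 had at least 3 UMIs of *Igll1*, *Vpreb1*, *Vpreb2*, *Vpreb3* and *Dntt* together, and 1 had at least 2 UMIs of 7 further endothelial genes. Further, 39 *Pd*-KO barcodes outside the members had at least 3 UMIs of the same 5 genes, against 1 each in Wild-type and *Mgp*-KO. Without *Vpreb3*, which is not part of the surrogate light chain, the *Pd*-KO barcodes with at least 3 UMIs numbered 30 in place of 68, members included. Lastly, a single *Mgp*-KO barcode held all 15 *Igll1* UMIs of that library, with 5 of *Vpreb1*, 8 of *Vpreb3*, 5 of *Dntt* and 9 of *Cd79a* among 11926 UMIs. It also held 112 UMIs of *Col3a1*, 59 of *Col1a1* and 41 of *Dcn*. It was not a member, having 1 UMI each of *Pdgfra* and *Pecam1*.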

How the results depend on the processing

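The *Pd*-KO share stayed above the Wild-type share under every alternative tried, but its size followed the rule. The difference was 0.148 percentage points with a minimum of 2000 UMIs and 0.0558 (interval -0.0310 to 0.164) with 4000, 0.148 with a rule sum of at least 5, 0.174 with a *Ptprc* UMI required, 0.670 with *Pecam1* allowed, 0.706 with no gene at 0, 0.190 with barcodes thinned to 1000 UMIs, and 0.0392 without the *Vpreb1* cluster, an alternative added after seeing the data that could only lower it. The corresponding *Pd*-KO shares were 0.272%, 0.107%, 0.228%, 0.271%, 0.802%, 0.8995%, 0.217% and 0.163%. The Wild-type share was 0.0430% with a minimum of 500 UMIs, where the barcodes counted rose to 34876, 0.0514% with 4000, 0.229% with a rule sum of at least 2 and 0.0264% after thinning. The *Mgp*-KO share was 0.0385% with a minimum of 4000. Its difference from Wild-type turned to 0.0553 points (0.00582 to 0.127) with a minimum of 500 and to 0.0194 (-0.0375 to 0.0763) after thinning. It was -0.137 (-0.251 to -0.0375) with a rule sum of at least 2. Centring per library left 15.6% of *Pd*-KO cells in clusters of their own, against 66.7%, and the cause was not tested. The *Vpreb1* cluster held most *Pd*-KO leukocytes, so centring also subtracts much of its own profile and cannot separate cluster from library. Shares of T cell-like clusters and of the B list stayed within their intervals under all alternatives run. No cluster was led by another cell type, so leaving such clusters out changed nothing. No paired analysis was possible because each genotype had 1 library. Few cells limit all shares, and a rule of 3 UMIs is met less easily by shallow leukocytes.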

Other observations

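The member with the most UMIs, a *Pd*-KO cell with 23279 against 6508 in the next cell of its cluster, had no UMI of *Cd79a*, *Vpreb1* or *Ebf1*. It was led by *Car1* (164 UMIs) and *Car2* (36), which encode carbonic anhydrases, and *Slc25a21* (86), a mitochondrial carrier. *Mki67* had 14 UMIs and *Top2a* 12, *Ptprc* 3, *Kit* 3 and *Gata1* 2, a factor of red cell and megakaryocyte precursors, while *Hbb-bs*, *Hba-a1* and *Alas2* had none. Its assignment to the plasmacytoid list rested on 4 UMIs of *Bst2* and 1 of *Tcf4*, with *Siglech* at 0.

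Free RNA of the Wild-type library, as counted in droplets of 10 to 100 UMIs, held more of some leukocyte transcripts than that of the knockout libraries. *C1qa*, a complement gene of macrophages, was at 154 CPM in Wild-type free RNA against 1.27 in *Mgp*-KO and 0.897 in *Pd*-KO, *Lyz2* at 222 against 2.53 and 5.98, and *Cd74* at 462 against 10.1 and 7.18. Of these, *C1qa* and *Lyz2* had no UMI in a Wild-type leukocyte, and *Cd74* had 294. Where this RNA came from was not tested. With the minimum lowered to 500 UMIs, the barcodes counted rose from 11350 to 34876 in Wild-type. They rose from 13086 to 13222 in *Mgp*-KO and from 9227 to 9369 in *Pd*-KO. Erythroid markers in the droplets of 10 to 100 UMIs were at 29752, 1246 and 577 CPM. Whether these droplets are of like kind in the libraries was not tested, so the contrast describes this window only. *Igll1* had no UMI in the free RNA of Wild-type or *Mgp*-KO and was at 0.897 CPM in that of *Pd*-KO.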
